A study of Saccharomyces cerevisiae with 2 samples.

Results

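The genes described here encode 51 proteins of the ATP-dependent chromatin remodelling machinery of the yeast *Saccharomyces cerevisiae*, out of 6207 ORFs in the deposited table. They were chosen by ORF name as subunits of the INO80, SWR1, SWI/SNF and RSC complexes, with the ATPases ISW1, ISW2 and CHD1. All 51 ORF names carried the listed symbol in the RefSeq gene table. The INO80 complex was represented by 14 genes, SWR1 by 12, SWI/SNF by 12 and RSC by 17, and 7 of the 51 encode subunits shared by a pair of these complexes and were counted in both.

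Chromatin remodellers use a Snf2-type ATPase to slide, evict or exchange nucleosomes. The Ino80 complex slides and spaces nucleosomes and was named for its part in inositol-regulated transcription, and the Swr1 complex exchanges histone H2A for the variant H2A.Z. SWI/SNF and RSC are related complexes that open promoter chromatin, RSC being essential for growth, while Isw1, Isw2 and Chd1 arrange nucleosomes into regular arrays. In budding yeast, SWI/SNF is recruited to genes of the cell wall stress response through the kinase Slt2 and its transcription factor Rlm1.

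RNA was compared on 2-colour microarrays between the caspofungin-treated and the untreated part of a divided culture of the wsc1 mutant in the BY4741 background. The treated part received 15 ng/ml caspofungin, a drug that inhibits β-1,3-glucan synthase, for 2 h at 24 °C in rich medium (YEPD), and the untreated part grew on without the drug. Both parts carried the wsc1 mutation, in the gene of a cell wall stress sensor, so no comparison with cells of intact WSC1 was possible. The labels do not give the kind of mutation. In replicate 1 the caspofungin RNA carried Cy3 and the untreated RNA Cy5, and in replicate 2 the caspofungin RNA carried Cy5 and the untreated RNA Cy3.

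Each value is a log2 dye ratio of 1 ORF in 1 replicate. The replicate 1 values were multiplied by -1, so that caspofungin RNA took the same place in the ratio in both. The turning assumes that one dye was divided by the other in the same order in both columns, and no label says so. As deposited, the columns had a Pearson r of -0.29. Which dye was the numerator is not stated. A negative value means less RNA with caspofungin if the ratio was Cy5 over Cy3 and more RNA if it was the reverse, so the results are given as sides and sizes only. Of the 6207 ORFs, 3117 (50.2%) had a value in both replicates, and WSC1 had none in either. The turned columns had a Pearson r of 0.29 over these ORFs, which are not independent replicates. The median over the same ORFs was 0.035 in replicate 1 and -0.042 in replicate 2. Over all 3705 ORFs with a value in replicate 1, the turned median of replicate 1 was 0.073. The labels describe 2 cultures hybridised in both dye orientations, without saying whether the 2 columns come from separate cultures. The p-values therefore measure only the spread between the 2 columns, which may be technical.

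Of the 51 remodelling genes, 26 (51%) had a value in both replicates. A further 5 had one in replicate 1 alone and 1 in replicate 2 alone, 18 were blank in both, and HTL1, which encodes a small RSC subunit, had no entry in the table. The rule that left values blank is not known, so the 26 cannot stand for all 51. Among the 7 ATPases, INO80, SWR1, ISW1, ISW2 and CHD1 had both values, while SNF2 and STH1, the ATPases of SWI/SNF and RSC, had neither. The share with both values was 9 of 14 for the INO80 complex, 7 of 12 for SWR1, 5 of 12 for SWI/SNF and 7 of 17 for RSC.

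INO80, SNF5 and RTT102 stood far on the negative side, and the other 23 measured remodelling genes lay between -0.41 and 0.29. The 3 encode the ATPase of the INO80 complex, a core subunit of SWI/SNF and a small subunit that SWI/SNF and RSC share. Means beyond 2-fold, on one side in both replicates, were found for 2 of the 26 genes (7.69%), against 0.962% of the 3117 ORFs. All 30 ORFs beyond 2-fold were negative, so the side was not particular to these genes. At 1.5-fold there were 3 (11.5%), against 4.04% of the ORFs. All 3 were negative, as were 103 of the 126 ORFs beyond 1.5-fold (3.3% of the 3117 ORFs). The set was assembled with the large ratio of INO80 already known, so these shares describe the set and are no test of it.

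**Figure D1:**
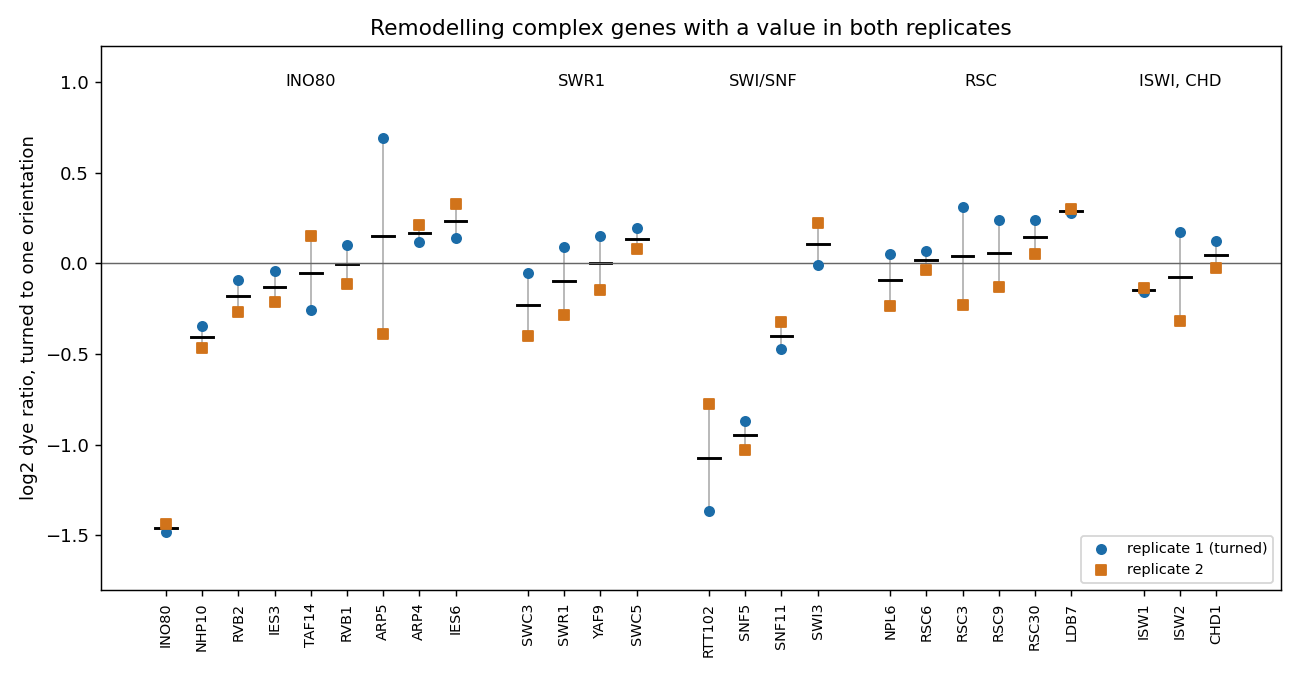
Log2 dye ratios of the 26 remodelling genes with a value in both replicates, turned to one dye orientation (vertical axis) and grouped by complex, with shared subunits drawn once. Circles are replicate 1, squares replicate 2 and bars their mean. INO80, RTT102 and SNF5 lie below -0.7 in both replicates, and no other of the 26 genes does so in either. IES5, with -0.79 in replicate 1 alone, is not drawn.

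INO80 (YGL150C) had -1.48 in replicate 1 and -1.44 in replicate 2. Both values were thus nearly equal after the sign of replicate 1 was turned. The mean was -1.46 ± 0.033 (SD, n = 2), a size of 2.75-fold, with a 95% limma interval of -1.75 to -1.16. With the sign of replicate 1 as deposited the mean would be 0.023. The turned mean was the lowest mean but 2 of the 3117 ORFs, and INO80 ranked 27th from the bottom in replicate 1 and 8th in replicate 2. Among the 30 ORFs beyond 2-fold, INO80 had the smallest SD, 0.033 against a median of 0.67 for those 30. The median SD of all ORFs with both values was 0.13.

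SNF5 (YBR289W), whose protein contacts the nucleosome surface in SWI/SNF, had -0.87 in replicate 1 and -1.03 in replicate 2. Its mean was -0.95 ± 0.11 (1.93-fold). RTT102 (YGR275W), whose protein binds the pair of actin-related proteins Arp7 and Arp9, had -1.37 in replicate 1 and -0.78 in replicate 2. Its mean was -1.07 ± 0.42 (2.10-fold), so the size depended on the replicate while the side did not.

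With limma, 0 of the 26 genes reached an adjusted p under 0.05, as did 0% of the 3117 ORFs. The adjusted p was 0.366 for INO80, SNF5 and RTT102 alike. At an unadjusted p of 0.05, limma gave 5 of the 26 genes (19.2%), against 13.4% of all ORFs, and all 5 were negative, where 7.76% of all ORFs were. They were INO80, SNF5, RTT102, NHP10 and SNF11. The plain one-sample statistic gave 0 adjusted and 3 unadjusted, namely INO80, LDB7 and ISW1, against 8.47% of all ORFs. A minimum fold of 1.2 in limma left INO80, SNF5 and RTT102 at an unadjusted p under 0.05, against 3.91% of all ORFs. With the sign of replicate 1 as deposited, ARP5 alone was at that p, against 3.02%. After each column was centred on its median, limma called INO80 (adjusted p = 3.8e-05), SNF5 (0.0018) and RTT102 (0.0018), 3 of 26 genes (11.5%) against 3.69% of all ORFs. It called the same 3 when the columns were scaled too, against 3.3%. INO80 was at -1.45 after centring and -1.46 before it, whereas the degrees of freedom of the variance prior were 17.1 after centring and 2.64 before it.

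**Figure D2:**
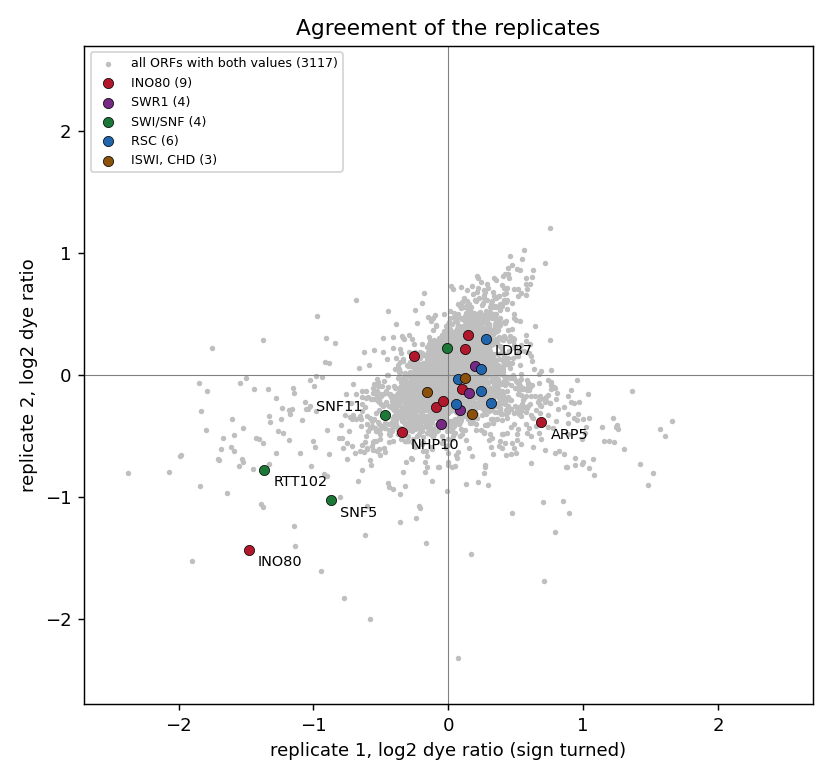
Log2 dye ratio in replicate 1 (horizontal axis, sign turned) against replicate 2 (vertical axis) for the 3117 ORFs with both values in grey and the 26 remodelling genes in colour by complex. INO80, SNF5 and RTT102 stand in the lower left, and the other coloured points lie within the grey cloud, with ARP5 at its right.

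The INO80 gene was set beside its partners with a value in both replicates, which lay around 0. The 8 partners with both values ranged from -0.35 to 0.69 in replicate 1 and from -0.47 to 0.33 in replicate 2. INO80 was below every one of them in both replicates. The difference of INO80 from the median of its partners was -1.51 in replicate 1 and -1.27 in replicate 2, a mean of -1.39 ± 0.17 (SD, n = 2). An exact sign-flip test over 2 columns gave p = 0.50 (two-sided), the smallest p that 2 columns allow. The large ratio of INO80 was known before it was set beside its partners, so the comparison only describes these genes. Against the 4 partners that no other complex shares, the difference was -1.33.

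The partners are described by the modules of the complex. NHP10 (YDL002C) encodes an HMG-box DNA-binding protein and anchors a module with Ies1, Ies3 and Ies5. It had -0.35 in replicate 1 and -0.47 in replicate 2, a mean of -0.41 ± 0.088 (adjusted p = 0.366, limma). It was the lowest of the 8 partners in both replicates, and still far above INO80. IES3 (YLR052W) had -0.043 in replicate 1 and -0.21 in replicate 2, IES5 (YER092W) had -0.79 in replicate 1 alone, and IES1 was blank. The 2 genes of this module with both values were thus negative in both replicates, as were 1011 of the 3117 ORFs. Of these 2, IES3 was close to 0 in replicate 1. IES5 was negative in the replicate that gave a value.

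ARP5 and IES6 encode a pair that couples ATP hydrolysis to nucleosome sliding. IES6 (YEL044W) had 0.14 in replicate 1 and 0.33 in replicate 2, a mean of 0.24 ± 0.13 (adjusted p = 0.415, limma). ARP5 (YNL059C) had 0.69 in replicate 1 and -0.39 in replicate 2, the widest gap between replicates of the 26 genes. Both ARP5 values were negative as deposited, and their mean, -0.54, was greater in size than the mean after turning, 0.15. The pair thus agreed in replicate 1 and not in replicate 2.

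RVB1 and RVB2 encode AAA+ ATPases that form a ring in both INO80 and SWR1. RVB1 (YDR190C) had 0.10 in replicate 1 and -0.11 in replicate 2. RVB2 (YPL235W) had -0.093 in replicate 1 and -0.27 in replicate 2. Their means were -0.0052 and -0.18, both within the range of the other partners. ARP4 (YJL081C), an actin-related protein of INO80, SWR1 and the acetyltransferase NuA4, had 0.12 in replicate 1 and 0.21 in replicate 2, the same side in both. TAF14 (YPL129W), a YEATS-domain protein found also in SWI/SNF, had -0.26 in replicate 1 and 0.15 in replicate 2, so its side changed with the replicate. IES2 had -0.054 in replicate 1 alone and ARP8, which binds nucleosomes through linker DNA, had 0.070 in replicate 2 alone, while IES4 was blank.

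**Figure D3:**
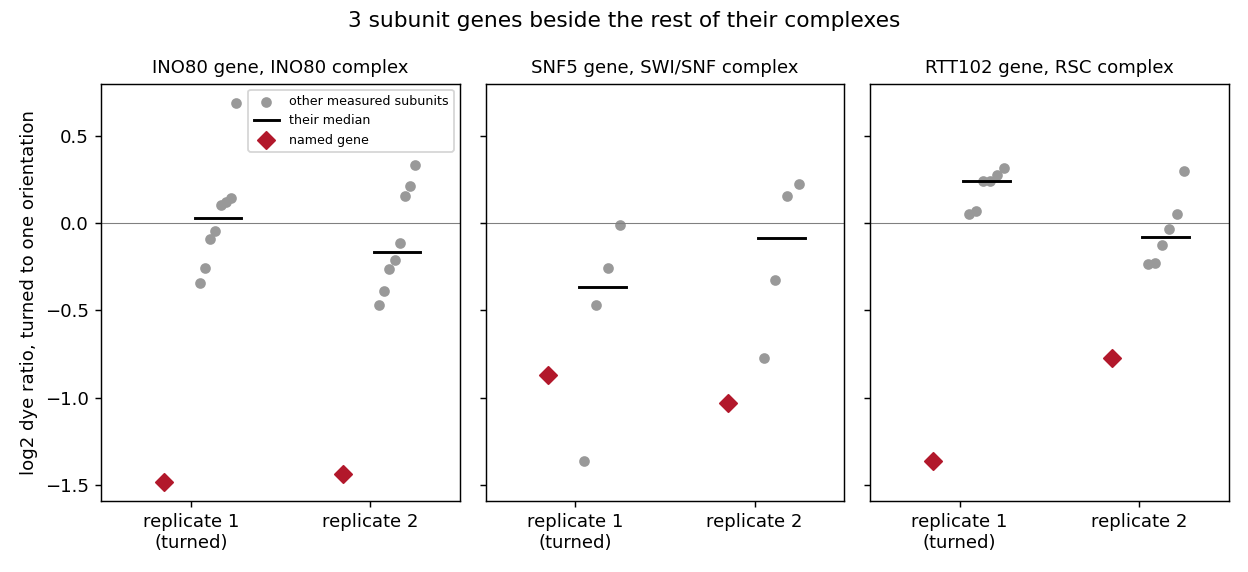
Log2 dye ratios, turned to one orientation (vertical axis), of INO80, SNF5 and RTT102 (diamonds) beside the other measured subunits of the named complex (grey points, with their median as a bar) in each replicate. INO80 lies below its 8 partners in both replicates, and RTT102 lies below its 6 RSC partners in both. SNF5 lies below its 4 SWI/SNF partners in replicate 2 and above RTT102 in replicate 1.

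Among the 5 measured SWI/SNF genes, 4 had a negative mean and 3 were negative in both replicates. The side of TAF14 (-0.26 and 0.15) changed with the replicate. The median of the 5 was -0.40. It was -0.47 in replicate 1 and -0.33 in replicate 2. The median over all 3117 ORFs was 0.010, with 47.9% negative in the mean and 1011 negative in both replicates. The SWI/SNF median rested on 5 of the 12 listed genes. It was -0.053 when SNF5 and RTT102 were left out, and also -0.053 when the 2 genes with a value in 1 replicate were added. SNF11 (YDR073W), which encodes a small subunit that binds Snf2, had -0.47 in replicate 1 and -0.33 in replicate 2, a mean of -0.40 ± 0.10 (adjusted p = 0.366, limma). SWI3 (YJL176C), a scaffold subunit, had -0.0095 in replicate 1 and 0.22 in replicate 2, so it was close to 0 in replicate 1 and opposite in side to SNF5 in replicate 2. SWP82 had 0.25 and ARP7 had 0.32 in replicate 1 alone. SNF2, SWI1, SNF12, SNF6 and ARP9 were blank.

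SNF5 differed from the median of the 4 other measured SWI/SNF genes by -0.50 in replicate 1 and -0.94 in replicate 2, a mean of -0.72 ± 0.31. RTT102 differed from the median of its 4 measured SWI/SNF partners by -1.002 in replicate 1 and -0.69 in replicate 2, a mean of -0.85 ± 0.22. From the median of its 6 measured RSC partners it differed by -1.61 in replicate 1 and -0.70 in replicate 2, a mean of -1.15 ± 0.64. Each of these 3 differences had an exact sign-flip p of 0.50 (two-sided), again the smallest possible, and both genes were chosen for this after their values were seen. ARP7, whose protein is a direct partner of Rtt102, had 0.32 in replicate 1, where RTT102 had -1.37.

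The 6 measured RSC genes other than RTT102 had means between -0.091 and 0.29. With RTT102 counted, 5 of 7 were positive, and the median was 0.042, but it was 0.24 in replicate 1 and -0.13 in replicate 2. LDB7 (YBL006C), a subunit that takes part in a module with Rsc3 and Rsc30, had 0.28 in replicate 1 and 0.30 in replicate 2, a mean of 0.29 ± 0.016 (adjusted p = 0.376, limma). This was the highest mean of the 26 genes, with the smallest SD among them. RSC30 (YHR056C) had 0.24 in replicate 1 and 0.050 in replicate 2. RSC3 (YDR303C), its zinc cluster homologue, had 0.31 in replicate 1 and -0.23 in replicate 2. The module was thus positive throughout replicate 1 and mixed in replicate 2.

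NPL6 (YMR091C), which belongs to the same module, had 0.053 in replicate 1 and -0.24 in replicate 2. RSC9 (YML127W), with an ARID-type DNA-binding domain, had 0.24 in replicate 1 and -0.13 in replicate 2. RSC6 (YCR052W) had 0.069 in replicate 1 and -0.034 in replicate 2. These 3 genes changed side between the replicates. SFH1 (YLR321C), the RSC counterpart of SNF5, had 0.32 in replicate 1, where SNF5 had -0.87, and no value in replicate 2. STH1, RSC1, RSC2, RSC4, RSC8 and RSC58 were blank, so the SWI/SNF and RSC counterparts Snf2 and Sth1, Swi3 and Rsc8, and Snf12 and Rsc6 could not be compared.

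SWR1 genes lay near 0, with 4 of 7 negative and a median of -0.0052. The median was 0.10 in replicate 1 and -0.15 in replicate 2. The ATPase gene SWR1 (YDR334W) had 0.088 in replicate 1 and -0.28 in replicate 2, a mean of -0.097 ± 0.26, so this related ATPase lay near 0 where INO80 did not. SWC3 (YAL011W) had -0.055 in replicate 1 and -0.40 in replicate 2, and SWC5 (YBR231C), needed for histone exchange, had 0.20 in replicate 1 and 0.078 in replicate 2. YAF9 (YNL107W), a YEATS-domain protein shared with NuA4, had 0.15 in replicate 1 and -0.15 in replicate 2. Only SWC3 and SWC5 kept one side among these 4. VPS72, which binds H2A.Z, and VPS71, ARP6, SWC4 and SWC7 were blank.

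The ATPases outside these complexes were also near 0. ISW1 (YBR245C) had -0.16 in replicate 1 and -0.14 in replicate 2, a mean of -0.15 ± 0.016 (adjusted p = 0.530, limma). ISW2 (YOR304W) had 0.17 in replicate 1 and -0.32 in replicate 2. CHD1 (YER164W) had 0.12 in replicate 1 and -0.027 in replicate 2. INO80 was thus the only one of the 5 measured remodeller ATPases beyond 1.5-fold, where 4.04% of all ORFs were. The other 4 had means between -0.15 and 0.048, as most ORFs lay within 1.5-fold.

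The replicates agreed on the side of 14 of the 26 remodelling genes (53.8%), against 64.1% of the 3117 ORFs. Of the 12 that disagreed, 10 were positive in replicate 1 and negative in replicate 2, and TAF14 and SWI3 ran the other way. The pattern of those 10 genes (38.5% of the 26) was found in 23.7% of all ORFs with both values. The median of the 26 genes was 0.079 in replicate 1 and -0.18 in replicate 2. The correlation of the replicates over the 26 genes was 0.75 (Pearson) and 0.49 (Spearman), and without INO80, SNF5 and RTT102 it was 0.16 and 0.27 over the other 23. These genes share the arrays and the dye labelling, so the correlations only describe the set.

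Neighbouring ORFs were examined because ORFs adjacent in name can lie near each other on an array. Within 3 places of INO80 in the order of ORF names, ARO2 had -1.02 in replicate 1 and -0.25 in replicate 2. YGL149W, which overlaps INO80 by 2 bases on the opposite strand in the R64 annotation, had 0.17 and 0.30, and NUT1, the neighbour on the other side, had 0.17 and -0.046. RPL9A had 0.075 and 0.050, so of the 4 neighbours with both values only ARO2 was negative in both replicates. Next to SNF5, on the same strand, BSD2 had -1.71 in replicate 1 and -0.69 in replicate 2, and on its other side APM3 had 0.041 and -0.085. Further out, CTP1 had 0.28 and 0.43, APE3 had 0.20 and 0.13, and YBR287W had 0.35 and 0.40, so of the 5 neighbours with both values only BSD2 was negative in both. RTT102 had 1 neighbour with both values within 3 places, CAB4, with 0.12 and 0.17. Of the 5 such neighbours of SNF11, 3 were negative in both replicates like SNF11 itself, namely PAA1 (-0.58 and -0.43), PPH3 (-0.49 and -0.25) and FMP16 (-0.090 and -0.33). Of the other two, IPT1 was positive in both and TPS2 changed side. Around NHP10, YCRX21C had -0.092 and -0.021, ATP16 had 0.23 and 0.30, and MED2 had 0.39 and -0.27. Over all 3117 ORFs with both values, 1011 were negative in both replicates. The neighbours of SNF5, RTT102, SNF11 and NHP10 were chosen after the values of these genes were seen. The part of array position in these ratios was not tested.

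**Figure D4:**
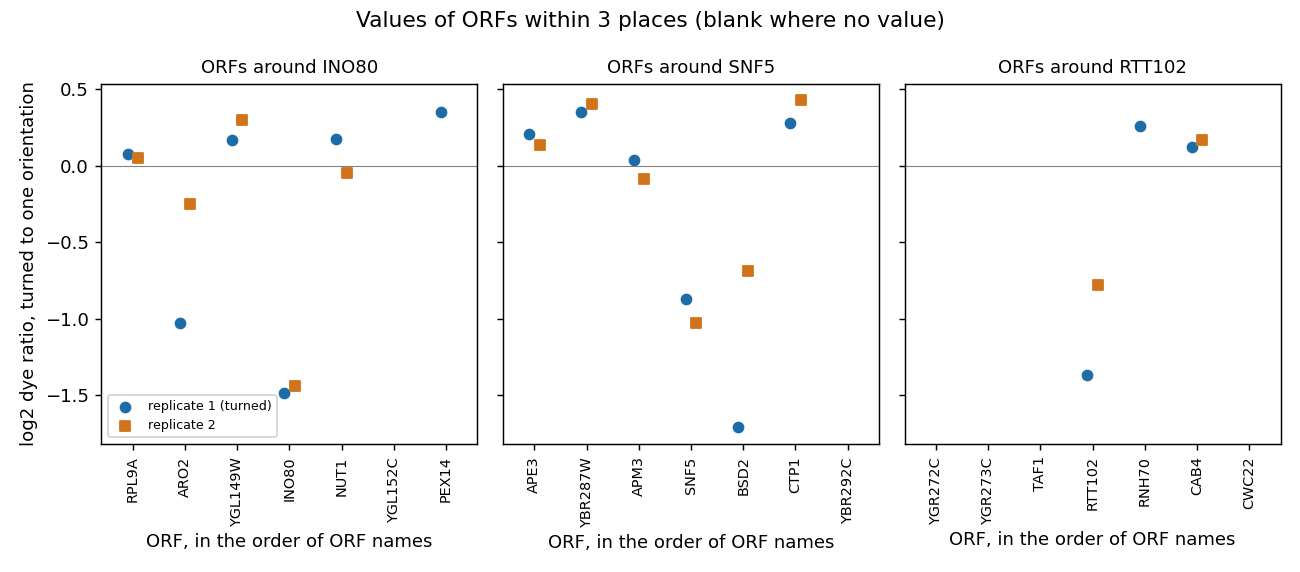
Log2 dye ratios, turned to one orientation (vertical axis), of ORFs within 3 places of INO80, SNF5 and RTT102 in the order of ORF names (horizontal axis). Circles are replicate 1 and squares replicate 2. ARO2 near INO80 and BSD2 beside SNF5 are negative in both replicates, and the ORFs measured around RTT102 are positive.

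Genes that act with the remodellers were read from lists of chromatin and phospholipid genes. Of 36 such genes with both values, 0 reached an adjusted p under 0.05 in limma, and 2 (5.56%), the histone gene HHT2 and IOC2, were at an unadjusted p under 0.05, a share below the 13.4% of all ORFs. Of 5 measured partner subunits of Isw1 and Isw2, 2 were negative and 3 positive, with a median of 0.055. The side of this median was not stable, at -0.017 in replicate 1 and 0.037 in replicate 2, and it was -0.018 with the sign of replicate 1 as deposited. IOC2, a subunit of an Isw1 complex, had -0.42 in replicate 1 and -0.40 in replicate 2, a mean of -0.41 ± 0.017 (adjusted p = 0.366, limma). IOC2 was thus on the side of INO80 in both replicates, as was ISW1 itself, whose mean of -0.15 was smaller in size. DPB4 had a mean of -0.20 and IOC3 one of 0.14.

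Of 5 other measured ATPases of the Snf2 family, 4 were negative, with a median of -0.055 and a range from -0.19 for FUN30 to 0.055 for RAD16. RDH54 had -0.081, so none was beyond 1.5-fold, where only 4.04% of all ORFs were. The side of their median depended on the replicate too, at 0.033 in replicate 1 and -0.12 in replicate 2. Both values were negative for 2 of the 4. The H2A.Z gene HTZ1, whose product is the substrate of Swr1, had -1.03 in replicate 1 and -0.041 in replicate 2, a mean of -0.53 ± 0.70 (adjusted p = 0.436, limma). Its size thus rested on replicate 1. The 9 measured histone genes had a median of -0.20, with 8 negative (88.9%, against 47.9% of all ORFs). Among the 8 were HHT2 at -0.39 and HTB2 at -0.30. HHF1 and HHF2 had the same value in replicate 1, so whether the 9 are separate measurements is not known. In replicate 1 the median was -0.17 and in replicate 2 it was -0.12, with 7 genes negative in both, and it was 0.021 with the sign of replicate 1 as deposited.

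Of 8 measured histone chaperone genes, 3 were negative and 5 positive, with a median of 0.052. The side of this median depended on the replicate, at 0.11 in replicate 1 and -0.27 in replicate 2. Both values were positive for 2 of the 5. The 3 negative genes were ASF1, CHZ1, which encodes a chaperone of H2A.Z, and RLF2, a subunit of the chromatin assembly factor, with means of -0.46, -0.30 and -0.30. Each of these was negative in both replicates. Inositol and phospholipid genes, from which the complex takes its name, had 3 of 6 positive and a median of 0.025. Replicate 1 gave a median of 0.024 and replicate 2 one of 0.13. One side was kept by 2 of the 6 genes. INO1, the inositol phosphate synthase gene that requires Ino80 for full activation, had 0.24 in replicate 1 and 0.23 in replicate 2, a mean of 0.24 ± 0.0053 (adjusted p = 0.398, limma), opposite in side to INO80. CDS1 had a mean of 0.24 as well.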

How the data were processed

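The members and gene lists were chosen with earlier results of these data known. The authors deposited 1 log2 dye ratio per ORF and replicate. The log2 scale was read from the values: 2 to the power of each has at most 4 decimals in 100% of cases (tolerance 0.001 of the last decimal). Background correction, normalization, centring and the rule for blanks are not stated; spot signals were not used, so the number of arrays limits precision. The 2 control entries were left out. Replicate 1 was turned in sign because its dyes were exchanged. For the 3117 ORFs with both values, limma 3.58.1 (R 4.3.3) tested the mean against 0 by lmFit and eBayes, two-sided. Benjamini-Hochberg adjustment was over all of them. The test was checked on simulated columns of equal centre, drawn from its own variance prior. Such columns follow the model of the test, so they cannot check how well that model fits these data, nor the effect of centring. Lists are described by counts and medians, without a test. Any member could be named; of each other list, HTZ1, INO1 and up to 3 genes of largest mean with one sign in both replicates. Symbols came from RefSeq (R64), which held 5654 of the 6207 ORFs. Alternatives were the opposite turning, centred or scaled columns, other statistics, single-column values and leaving out each replicate.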

Additional observations from a re-analysis of the deposited data

How the results depend on the processing

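No adjusted call was made with the turned columns when they were neither centred nor scaled. Of the 26 members, 3 (11.5%) passed an adjusted p of 0.05 in limma with centred columns, against 3.69% of all ORFs. The number was also 3 with scaled columns, against 3.3%. INO80 was at -1.45 with centred and -1.46 with scaled columns (adjusted p = 3.8e-05 and 9.0e-05, limma). The cause of these calls was not tested. Members at an unadjusted p of 0.05 numbered 1 of 26 under the opposite turning, against 3.02% of all ORFs. They numbered 3 with the plain statistic, against 8.47%, and 3 with a minimum fold of 1.2, against 3.91%. Under the opposite turning, where replicate 1 kept its deposited sign, 0 members were beyond 2-fold (the share of all ORFs was not counted). INO80 then had a mean of 0.023, and its difference from its partners was 0.12. The SWI/SNF median was then 0.12, and it was -0.053 both with single-column values and without SNF5 and RTT102 (an alternative chosen after seeing the data). Other means that changed sign under the opposite turning were those of ARP5 (-0.54), TAF14 (0.21), SWC5 (-0.059), YAF9 (-0.15), SNF11 (0.073), RTT102 (0.30), RSC3 (-0.27), RSC6 (-0.051), RSC9 (-0.18), RSC30 (-0.096), ISW1 (0.011) and CHD1 (-0.075). RVB1 changed sign with scaled columns (0.00068). When each replicate was left out, the median of the INO80 complex ranged from -0.21 to -0.043 and that of ISW1, ISW2 and CHD1 from -0.14 to 0.12. INO80 ranged from -1.48 to -1.44. No paired analysis was possible because there is 1 group, and each ratio already pairs both RNAs of its replicate.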

Other observations

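Few genes of the histone acetyltransferase complexes had values in both replicates, where 50.2% of all ORFs did. Of the 9 listed genes of NuA4, which acetylates histone H4 and shares Arp4, Swc4 and Yaf9 with SWR1, 1 had a value in both replicates (EAF3, with a mean of 0.066). Replicate 1 alone gave values for 4 more, 0.69 for EAF6, 0.69 for YNG2, 0.51 for EAF7 and -0.18 for EAF5. Thus 3 of these 4 lay on the positive side, where the median of all 3705 replicate 1 values (0.073) also lay. Of the 13 listed genes of SAGA, which acetylates histone H3, 12 had an entry and 2 had both values. SPT7 had -0.17 in replicate 1 and -0.18 in replicate 2, and SGF29 had a mean of 0.032. GCN5, the acetyltransferase of SAGA, had 0.49 in replicate 1 alone. These genes other than SPT7 were named after their values were seen.

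SPT16, a subunit of the histone chaperone FACT, had turned values of 1.48 in replicate 1 and -0.90 in replicate 2, and both deposited values were negative. It was picked after its values were seen.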
